A study of Mus musculus with 18 samples.

Results

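Nonsense-mediated decay removes RNAs on which translation ends well upstream of the last exon junction. The pathway acts only on RNAs that are being translated, and many transcripts made by alternative splicing carry such an early stop codon. Gtpbp1 and Gtpbp2 are related GTPases that act on ribosomes, so transcripts annotated as decay targets can be followed in mice lacking either of them. The data used here are RNA sequencing and ribosome profiling of cerebellum from 3-week-old mice, with 3 RNA libraries and 3 footprint libraries for each of 3 genotypes. Each library was made from a single cerebellum and mice of both sexes were used.

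The controls are C57BL/6J (B6J) mice, which carry the B6J mutation of the arginine tRNA gene n-Tr20 on both alleles, as do the mutants. B6J.Gtpbp1-/- mice carry a targeted allele that lacks exon 4 and some of exon 3, where a PGK-Neo cassette was put in. B6J-Gtpbp2-/- mice are homozygous for the nmf205 point mutation in Gtpbp2. The comparisons below set each mutant against B6J and the mutants against each other, so the comparisons with B6J share the same 3 control libraries.

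The members are the transcripts annotated as nonsense-mediated decay targets, those of Srsf genes left out, with a mean of at least 1 TPM over the 9 RNA libraries. They were thus chosen by their level, a mean over all genotypes, and that level is given as a description. Of 138835 transcripts in 54752 genes, 6917 carry the annotation, and 15 of these belong to Srsf genes (11 of them at 1 TPM or more). Among the other 6902, 4314 have a mean below 1 TPM, 830 of them with no reads assigned in any library. That leaves 2588 members in 1998 host genes. Most host genes (1557) have 1 member, 336 have 2, 78 have 3 and 27 have at least 4, with the most, 10, in Tmem234. Because the threshold is a mean over all 9 libraries, a rare transcript present in only 1 genotype can be a member through that genotype alone.

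The mutated genes are given first. Gtpbp1-201, the longest annotated Gtpbp1 transcript, was at 21.01, 19.95 and 20.9 TPM in B6J.Gtpbp1-/-, 28.1, 35.9 and 32.0 in B6J-Gtpbp2-/- and 31.3, 34.6 and 28.6 in B6J. The targeted allele lacks exon 4 and some of exon 3. The B6J.Gtpbp1-/- values are thus reads assigned to this annotated transcript and do not show an intact RNA. All 3 B6J.Gtpbp1-/- libraries lie below the other 6, and the transcript fell with a log2 fold change of -0.73 ± 0.10 against B6J (SE here and below, n = 3 libraries per genotype; edgeR quasi-likelihood test with Benjamini-Hochberg adjusted p = 0.0381). Summed over all its transcripts Gtpbp1 stood at 34.5, 35.1 and 41.1 TPM in B6J.Gtpbp1-/- and 43.5, 38.4 and 40.4 in B6J, while the retained-intron transcript Gtpbp1-207 was at 10.38, 9.49 and 12.8 against 7.83, 1.30 and 3.64. Gtpbp1 footprints, 222, 222 and 213 against 329, 530 and 534, fell by 1.57 ± 0.23 (edgeR adjusted p = 0.00676). The counts of Gtpbp1 RNA summed over its transcripts fell by 0.73 ± 0.08 (edgeR adjusted p = 5.94e-05).

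Gtpbp2-201, the full-length Gtpbp2 transcript, was at 18.2, 23.5 and 22.5 TPM in B6J-Gtpbp2-/-, 49.99, 41.9 and 46.4 in B6J.Gtpbp1-/- and 31.3, 29.6 and 34.2 in B6J. The 3 groups do not overlap, yet neither difference from B6J passed (-0.68 ± 0.13 in B6J-Gtpbp2-/-, edgeR adjusted p = 0.138, and 0.42 ± 0.10 in B6J.Gtpbp1-/-, edgeR adjusted p = 0.169). At the gene level Gtpbp2 RNA rose by 0.34 ± 0.08 in B6J.Gtpbp1-/- (edgeR adjusted p = 0.0154) and was 0.55 ± 0.08 higher there than in B6J-Gtpbp2-/- (edgeR adjusted p = 0.0360). These are counts, and gene TPM, which allows for transcript length, was 139, 160.0 and 162 in B6J.Gtpbp1-/-, 127, 145 and 151 in B6J-Gtpbp2-/- and 114, 91.7 and 99.0 in B6J. By TPM the mutants overlap and both lie above B6J. Footprints on Gtpbp2 numbered 185, 96 and 78 in B6J-Gtpbp2-/-, 251, 377 and 349 in B6J.Gtpbp1-/- and 200, 164 and 242 in B6J. Retained-intron Gtpbp2-212 was at 24.6, 22.3 and 21.2 TPM in B6J-Gtpbp2-/-, 13.6, 11.9 and 10.1 in B6J.Gtpbp1-/- and 7.41, 9.46 and 5.03 in B6J. The groups do not overlap, yet it did not pass in B6J-Gtpbp2-/- (1.49 ± 0.29, edgeR adjusted p = 0.140). Gtpbp2-214, also with a retained intron, had means of 18.4 TPM there and 7.87 in B6J (1.10 ± 0.27, edgeR adjusted p = 0.225). No retained-intron transcript of Gtpbp2 that was tested fell there. The part of the point mutation in these levels was not tested, and protein was not analysed here. Gtpbp2 itself hosts 2 members, Gtpbp2-205 (mean 3.02 TPM) and Gtpbp2-211 (mean 1.32 TPM), and neither changed in any comparison; the decay-annotated Gtpbp1-209 has a mean of 0.372 TPM and is not a member.

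Before any comparison, B6J replicates 1 and 3 stand apart from the other 7 RNA libraries. They have 68366 and 67151 transcripts above 0, against 80394 to 85627 in the rest, although their 49090501 and 52114400 assigned reads are not fewer. In these same libraries 262 and 321 members (10.1% and 12.4%) are at 0, against 40 to 106 in the others. Members of low level therefore read as absent more often in B6J than in either mutant, and some of the results below are also given without these libraries. Correlations of log2 TPM over the members run from 0.656 to 0.756 between B6J replicates, 0.793 to 0.809 within B6J.Gtpbp1-/- and 0.803 to 0.854 within B6J-Gtpbp2-/-. The Y-linked Ddx3y is at 77.1 and 83.2 TPM in B6J.Gtpbp1-/- 1 and 2, 61.6 in B6J 2 and at most 1.57 in the others, so the groups differ in sex make-up, with 2, 0 and 1 RNA libraries high in Ddx3y in B6J.Gtpbp1-/-, B6J-Gtpbp2-/- and B6J. Footprints of Ddx3y are high in B6J.Gtpbp1-/- 1 and B6J 1 and 2, so RNA and footprint libraries of the same number are not from the same mouse in at least B6J.Gtpbp1-/- 2 and B6J 1.

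Marker genes of several cell types also differ between the groups. Summed TPM of 7 granule neuron genes was 2254, 2201 and 2592 in B6J.Gtpbp1-/-, 2369, 2559 and 2201 in B6J-Gtpbp2-/- and 3420, 3460 and 3497 in B6J, with 6 and 5 of the 7 lower in RNA, respectively. The most abundant of them over the 9 libraries, the synapse organizer gene Cbln1, stood at 543, 474 and 564, then 516, 594 and 460.2, then 840.0, 773 and 825 TPM, below the receptor gene Gabra6 in B6J (874, 853 and 944). All 5 oligodendrocyte genes were lower in B6J.Gtpbp1-/- (summed TPM 6868, 6980.3 and 5951 against 8362, 7179 and 8279 in B6J), Mbp being the most abundant with 3619, 3475 and 2831 against 4338, 3667 and 4511 TPM, and none was called in B6J-Gtpbp2-/-. Of 5 microglia genes 4 and 3 were higher, with sums of 138, 119.5 and 120.3 and of 118, 125 and 130.0 against 52.8, 54.5 and 66.6 in B6J, and C1qa was the most abundant of them. Endothelium genes, Cldn5 the most abundant, summed to 95.2, 109 and 105 TPM, then 89.9, 122 and 130.4, then 63.6, 63.7 and 67.9, without overlap between mutants and B6J, and 3 and 2 of the 4 were higher. Sums of the 5 genes of astrocytes and Bergmann glia, Slc1a3 the most abundant, overlap (1357 to 1608, 1386 to 1591 and 1300.4 to 1541 TPM), with Gfap higher by 1.35 ± 0.13 (edgeR adjusted p = 3.04e-05) and 1.22 ± 0.11 (edgeR adjusted p = 0.000104) and 2 of the others lower in each mutant. Choroid plexus genes summed to between 128 TPM in B6J-Gtpbp2-/- 1 and 3707 in B6J.Gtpbp1-/- 1, and differ within each group. Blood genes summed to 5378, 4645 and 5809 TPM, then 988, 4490 and 2629, then 3710, 2121 and 2789, so that B6J.Gtpbp1-/- lies above B6J, and of the 3 Alas2 was called higher there, by 0.92 ± 0.20 (edgeR adjusted p = 0.0138). Sums of bone and skeletal muscle genes overlap (32.3 to 44.8, 26.5 to 42.2 and 23.9 to 35.9 TPM). The 5 Purkinje cell genes, Pcp2 the most abundant, summed to 4618, 3833 and 5145 TPM, then 3848, 4209 and 3474, then 4623, 4903 and 3868, with 1 and 3 of them lower in the mutants. In bulk tissue fewer cells of a kind cannot be told from less RNA per cell.

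Most members are rare transcripts of genes whose main product is another RNA. The quartiles of their mean level are 1.71, 3.03 and 6.32 TPM, 412 reach 10 TPM and 17 reach 100. In genes with several transcripts their median share of the host gene's TPM is 8.25% (quartiles 3.83 and 17.5), with 110 above 50% and 94 below 1%. A member is the most abundant transcript of its gene in 247 cases, and 21 members are the only transcript their gene has. In 1926 members every library is above 0.

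The member of highest mean level is Mobp-204, from the gene for a myelin-associated oligodendrocyte protein, with a mean of 789 TPM and 83.4% of its gene. Next are Ppia-201 of cyclophilin A (733 TPM, 47.5%) and Atp2a2-203 of the calcium pump SERCA2 (529 TPM, 97.2%). Eif4a2-210, of an initiation factor helicase, stands at 275 TPM and Atp5f1-203, of an ATP synthase subunit, at 262. Rpsa-206, of a ribosomal protein gene, has 259. Ddx5-208, of an RNA helicase, has 192, Ap2m1-203, of a clathrin adaptor subunit, 151, and Eef1b2-205, of an elongation factor subunit, 144 TPM. For Ppia-201 the 9 values were 799, 659 and 686 TPM in B6J.Gtpbp1-/-, 777, 689 and 707 in B6J-Gtpbp2-/- and 750.0, 735 and 797 in B6J, and for Atp2a2-203 538, 525 and 622 TPM in B6J.Gtpbp1-/-, 481, 540.1 and 507 in B6J-Gtpbp2-/- and 528, 528 and 490.1 in B6J. The genotypes overlap for both, and neither changed.

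Some members hold nearly all of the TPM of their gene. Besides Atp2a2-203, given above, Vmn2r90-202, of a vomeronasal receptor gene, holds 100% of its gene in every library at a mean of 1.06 TPM, and Gm21988-201 and Gm20662-203, of predicted genes, hold 97.6% and 94.4%. At the threshold, Tmem161a-212, Tmem241-207 and Chst9-202 lie just inside with means that round to 1.00 TPM. Pan3-205 (1.00 after rounding), Spopl-201 (0.999) and Hmces-206 (0.998) lie just outside. Chst9-202, of a sulfotransferase gene, was at 1.77, 1.62 and 0.638 TPM in B6J.Gtpbp1-/-, 0.939, 0.543 and 0.332 in B6J-Gtpbp2-/- and 0.571, 1.59 and 1.01 in B6J, values that overlap between all genotypes.

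Nearly all members have the structure that defines the annotation. In the reference annotation 2577 were matched, 2574 keep the same type and 2573 have an annotated stop codon. That stop lies at least 50 bases before the last exon junction in 2558 and nearer than that in 15. The median distance is 353 bases (quartiles 172 and 758), with a median of 3 junctions after the stop (quartiles 2 and 6). TGA ends 1445 of the reading frames (56.2%), TAA 603 (23.4%) and TAG 525 (20.4%). The stop falls inside the coding sequence of another transcript of the gene in 1336 members (51.6%) and outside any in 987 (38.1%). For 174 (6.72%) it is the normal stop codon of the gene, with an intron in the 3' untranslated region making the transcript a target, as in Mobp-204, Atp2a2-203 and Hnrnpa1-203. Another 76 (2.94%) are in genes without a protein-coding transcript.

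The sequence at the stop codon is shown for 6 of the 7 members called below and for the next most abundant, Ppia-201 and Atp2a2-203, because it is where translation of a decay target ends. Each line gives 27 bases in the sense of the transcript on GRCm38, with the stop codon in capitals. On the plus strand lie Rpl10a-203 (chr17:28328584-28331032), Mobp-204 (chr9:120149742-120181484), Cyb5r1-202 (chr1:134406313-134407667), Cct7-202 (chr6:85452052-85468282) and Ppia-201 (chr11:6415870-6419815). The minus strand carries Phf10-203 (chr17:14947738-14961273), Ddx5-208 (chr11:106781548-106788494) and Atp2a2-203 (chr5:122453513-122502174).

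Phf10-203: gtactcaccagaTGAgcttcggtactt

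Rpl10a-203: ttggcaccgctcTAAccccacccagcc

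Cyb5r1-202: acctgctgctgcTAAggccctggcagt

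Cct7-202: ccaattggctgtTAAcaaaatcaaaga

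Ddx5-208: agagggctaggtTAGtacaaactcgaa

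Mobp-204: ccaaggaagaagTGAccgagaagggac

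Ppia-201: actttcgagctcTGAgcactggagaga

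Atp2a2-203: atgttctggtctTGActgacagcgcta

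A stretch of sequence that no other transcript has ties a read to 1 transcript by itself. Combinations of shared stretches within a read pair were not counted here. The median member has 3.97% of its 31-base words to itself (quartiles 1.26 and 13.2), 343 members have none and 1466 have less than 5%. Levels of such members rest at least in part on the model of the quantifier. The pooled SD of log2 TPM between replicates is 0.585 for members without own words and 0.499 for those with at least 5%. In 1236 members some words also occur in transcripts of other genes. Such words make up 65.0% of Rpl10a-203, 66.7% of Rpl22l1-204, 57.4% of Rps19-205, 74.5% of Hnrnpa1-203 and 79.0% of Mrps34-203. The part of reads from other genes in the levels of these members was not tested. Of the members named below, Phf10-203 (73.3%) and Mobp-204 (70.5%) are read mainly by their own sequence, and Rpl10a-203, Rpl22l1-204, Adamts10-203, Agtpbp1-218, Mrps34-203, Ndufa3-204, Hnrnpk-230 and Cnot1-212 have no word of their own.

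Summed over all members, the decay-annotated transcripts made up nearly the same part of the RNA in every library. The sums were 21930.2, 21273 and 21077 TPM in B6J.Gtpbp1-/-, 21725, 20904 and 21289 in B6J-Gtpbp2-/- and 19871, 19497 and 21056 in B6J. The mutant means are 1.06 times the B6J mean in both mutants, and B6J 3 lies within the range of B6J-Gtpbp2-/- and just below the lowest B6J.Gtpbp1-/- library. With TPM rescaled to nuclear genes the ratios are 1.01 and 1.02, because mitochondrial transcripts take 20.1%, 19.4% and 20.5% of TPM in B6J and 14.2% to 17.4% in the mutants. With B6J 1 and 3 left out they are 1.10 and 1.09. As a percentage of their host genes' TPM the members made up 14.1, 13.8 and 13.7 in B6J.Gtpbp1-/-, 13.9, 13.6 and 14.0 in B6J-Gtpbp2-/- and 13.4, 13.3 and 14.1 in B6J. The median share of a member was 8.05%, 8.11% and 8.19%, then 7.96%, 8.13% and 8.02%, then 7.82%, 7.52% and 7.53%. Those medians do not overlap between the mutants and B6J.

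Loss of Gtpbp1 changed few members individually. Against B6J the edgeR quasi-likelihood test called 7 of the 2535 members tested, 4 higher and 3 lower, and the other 53 members had too few reads to be tested. Over all 67667 transcripts it called 0.715%, 222 higher and 262 lower. The median log2 fold change of members was 0.03 (quartiles -0.43 and 0.44) and that of all transcripts 0.05. At unadjusted p < 0.05 there were 223 members (8.80%) against 11.0% of all transcripts, and DESeq2 called 145 members against 7.94% of all transcripts (5372), so members were called no more often than transcripts as a whole. With upper-quartile scaling the split was 3 higher and 5 lower, and with limma on log2 TPM it was 14 and 5, where the median over all transcripts moved to 0.16. The list of calls depends on each library: without B6J.Gtpbp1-/- 1, 2 or 3 it holds 1, 0 and 1 members, without B6J 1, 2 or 3 it holds 0, 3 and 2, and without B6J 1 and 3 together 0. With a covariate for Ddx3y 1 of the 7 is called, Phf10-203 (edgeR adjusted p = 0.0456), and the other 6 are not.

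The member with the clearest rise was Phf10-203, a transcript of the gene for a subunit of the PBAF chromatin remodelling complex. It was at 80.5, 83.9 and 95.6 TPM in B6J.Gtpbp1-/-, 61.7, 89.8 and 89.2 in B6J-Gtpbp2-/- and 26.4, 26.8 and 30.5 in B6J. All 6 mutant libraries lie above all B6J libraries. The log2 fold change in B6J.Gtpbp1-/- was 1.53 ± 0.10 (edgeR adjusted p = 0.00684). Its share of Phf10 stayed level, at 43.3, 39.3 and 39.8% in B6J.Gtpbp1-/- and 42.6, 42.8 and 41.7% in B6J, so the whole gene rose with it. Phf10 RNA went from 62.0, 62.7 and 73.0 TPM to 186, 213 and 240.5 (edgeR adjusted p = 5.68e-07). Phf10 footprints, 451, 496 and 378 against 115, 136 and 140, rose by 1.25 ± 0.20 (edgeR adjusted p = 0.0134). The call of Phf10-203 held when B6J.Gtpbp1-/- 1, B6J.Gtpbp1-/- 3, B6J 2 or B6J 3 was left out, and not without B6J.Gtpbp1-/- 2, without B6J 1 or without B6J 1 and 3 together. Its stop codon lies 139 bases before the last junction.

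Cyb5r1-202 was seen only in the mutants. Cyb5r1 encodes a reductase of the cytochrome b5 family, and the transcript was at 7.52, 9.08 and 11.1 TPM in B6J.Gtpbp1-/-, 1.94, 4.72 and 10.2 in B6J-Gtpbp2-/- and 0 in all 3 B6J libraries. Against a floor of 3 counts per library the rise in B6J.Gtpbp1-/- is at least 22.8-fold (edgeR adjusted p = 0.0457). With no reads in B6J, it is a member and reached the count needed for testing through the mutant libraries alone. Its fold and p value are therefore only a description. The host gene rose as a whole, from 17.7, 16.1 and 16.9 TPM in B6J to 103, 103 and 134 (2.54 ± 0.13, edgeR adjusted p = 1.31e-07). Footprints on Cyb5r1 went from 155, 151 and 211 to 923, 645 and 903, 1.82 ± 0.25 (edgeR adjusted p = 0.00520). Within the gene the share of Cyb5r1-202 was 7.27, 8.82 and 8.32% in B6J.Gtpbp1-/-. Without any 1 of the B6J libraries the call of Cyb5r1-202 was lost, and without any 1 of the mutant libraries it had too few reads to be tested.

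The other members that rose had larger shares of their genes as well, though no share passed its own test. Rpl10a-203, from a gene for a protein of the large ribosomal subunit, was at 19.8, 24.2 and 28.7 TPM in B6J.Gtpbp1-/-, 13.4, 19.5 and 17.7 in B6J-Gtpbp2-/- and 5.44, 4.88 and 5.46 in B6J. Every mutant library lies above every B6J library, and the log2 fold change in B6J.Gtpbp1-/- was 2.04 ± 0.21 (edgeR adjusted p = 0.0209). Its share of Rpl10a was 14.6, 22.0 and 24.2 percent in B6J.Gtpbp1-/-, 13.7, 19.0 and 16.7 in B6J-Gtpbp2-/- and 6.08, 5.23 and 5.45 in B6J, while Rpl10a RNA rose by only 0.36 ± 0.09 (edgeR adjusted p = 0.0235). Cct7-202, from a chaperonin subunit gene, was at 72.2, 73.0 and 72.3 TPM in B6J.Gtpbp1-/-, 34.8, 58.7 and 69.1 in B6J-Gtpbp2-/- and 45.5, 43.8 and 48.0 in B6J. The B6J.Gtpbp1-/- values lie above B6J and the B6J-Gtpbp2-/- values run from below B6J to just under B6J.Gtpbp1-/-. Cct7-202 rose by 0.53 ± 0.08 (edgeR adjusted p = 0.0489) while Cct7 RNA did not change (0.15 ± 0.08, edgeR adjusted p = 0.246). The calls of Rpl10a-203 and Cct7-202 were each lost when any 1 library was left out, that of Cct7-202 also with upper-quartile scaling.

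Ddx5-208 fell while its gene did not pass. Ddx5 is a DEAD-box helicase that acts in splicing and transcription, and its transcript Ddx5-208 was at 145, 155 and 140.3 TPM in B6J.Gtpbp1-/-, 181, 166 and 171 in B6J-Gtpbp2-/- and 270.4, 213 and 286 in B6J. The 3 groups do not overlap. In B6J.Gtpbp1-/- the log2 fold change was -0.91 ± 0.11 (edgeR adjusted p = 0.0289) and that of Ddx5 RNA -0.27 ± 0.08 (edgeR adjusted p = 0.0509). Its share of Ddx5 was 15.3, 16.1 and 14.1 percent in B6J.Gtpbp1-/-, 18.8, 16.8 and 17.6 in B6J-Gtpbp2-/- and 27.1, 20.9 and 25.7 in B6J. Without B6J 2 the call of Ddx5-208 stayed, and without any other library it was lost.

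Tbata-205 and Mobp-204 fell with their host genes. Tbata, a gene named for its expression in thymus, brain and testis, had its transcript Tbata-205 at 4.67, 7.88 and 5.94 TPM in B6J.Gtpbp1-/-, 10.39, 7.84 and 7.23 in B6J-Gtpbp2-/- and 18.6, 17.8 and 21.03 in B6J. All mutant values of Tbata-205 are below all B6J values, with a log2 fold change of -1.78 ± 0.23 (edgeR adjusted p = 0.0350) in B6J.Gtpbp1-/-. Tbata RNA fell by 1.75 ± 0.11 (edgeR adjusted p = 3.97e-07) and Tbata footprints by 1.24 ± 0.25 (edgeR adjusted p = 0.0402). Mobp-204 was at 630.2, 661 and 609 TPM in B6J.Gtpbp1-/-, 991, 774 and 955 in B6J-Gtpbp2-/- and 852, 754 and 873 in B6J, with B6J.Gtpbp1-/- below the other groups. It fell by 0.51 ± 0.07 in B6J.Gtpbp1-/- (edgeR adjusted p = 0.0429), and Mobp RNA by 0.59 ± 0.09 (edgeR adjusted p = 0.000593). All 5 oligodendrocyte marker genes, Mbp the most abundant, were lower in the same mutant as given above, and their part in the fall of Mobp-204 was not tested. Leaving out any 1 library took the calls of Tbata-205 and Mobp-204 away.

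Counted without a test, many more members separated the B6J.Gtpbp1-/- libraries from B6J. All 3 mutant TPM values lay above all 3 B6J values for 368 of 2535 members (14.5%) and below them for 125 (4.93%), where 17% and 5.64% of all transcripts did so. For shares it was 207 of 2548 members (8.12%) above and 156 (6.12%) below, against 7.83% and 6.69% of all transcripts tested. Higher values were thus the more frequent over all transcripts too. The part that the transcripts at 0 in B6J 1 and 3 play in this was not tested.

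The calls in B6J.Gtpbp1-/- are given by structure as a description, and differences between the classes were not tested. Over all transcripts 0.715% were called. The 1307 members tested with a stop inside another coding sequence had 2 calls, both higher (Phf10-203 and Cct7-202), and a median abundance change of 0.06. The 968 with a stop outside had 2 higher calls, Cyb5r1-202 among them, 2 lower calls and a median of 0.02. The 171 ending at the normal stop had 1 lower, Mobp-204, and a median of -0.11. AGA is a codon read by the tRNA that n-Tr20 encodes. Of 1746 members with a complete reading frame, 1265 contain at least 1 AGA codon and 481 none, and both classes had a median of 0.02 in B6J.Gtpbp1-/-. In B6J-Gtpbp2-/- their medians were 0.04 and -0.01. Among the 592 members tested that end in TAA 3 were called higher, Cyb5r1-202 included. Among 516 in TAG 2 were called lower, and among 1413 in TGA 1 each way.

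Just outside the threshold in B6J.Gtpbp1-/- were Car4-203 and Echdc2-209 (edgeR adjusted p = 0.0525 and 0.0526), and just inside it Cct7-202 (edgeR adjusted p = 0.0489). Car4-203, of a carbonic anhydrase gene, was at 9.78, 11.2 and 9.38 TPM in B6J.Gtpbp1-/- and 36.5, 24.7 and 40.1 in B6J. Echdc2-209, of a gene of the enoyl-CoA hydratase family, was at 6.42, 6.29 and 5.86 TPM in B6J.Gtpbp1-/- and 13.0, 11.96 and 15.1 in B6J.

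Loss of Gtpbp2 left no member past the threshold. Of 2537 members tested against B6J, edgeR called 0, where it called 0.144% of all 68960 transcripts, 61 higher and 38 lower. At unadjusted p < 0.05 there were 191 members, and 9.46% of all transcripts, and DESeq2 called 71 members and 3.97% of all transcripts. The median change of members was 0.03 and that of all transcripts 0.06, and 51 members were not tested. Without B6J-Gtpbp2-/- 1 the count is 1. Values of all 3 mutant libraries lay above B6J for 341 members (13.4%) and below for 110 (4.34%), against 16.1% and 4.88% of all transcripts. For shares it was 213 (8.36%) above and 136 (5.34%) below, against 7.87% and 5.95%.

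The member closest to the threshold in B6J-Gtpbp2-/- was Phf10-203, whose values given above do not overlap with B6J, at 1.41 ± 0.17 (edgeR adjusted p = 0.0581). Phf10 itself rose in this mutant, by 1.36 ± 0.16 (edgeR adjusted p = 0.00151) in RNA and 0.97 ± 0.21 (edgeR adjusted p = 0.0206) in footprints. Side by side with B6J.Gtpbp1-/-, Rpl10a-203 was at 1.55 ± 0.23 (edgeR adjusted p = 0.0854), Ddx5-208 at -0.68 ± 0.11 (edgeR adjusted p = 0.1004) and Tbata-205 at -1.30 ± 0.20 (edgeR adjusted p = 0.0831). Cyb5r1-202 was at least 13.9-fold above the B6J floor (edgeR adjusted p = 0.168). Mobp-204 was level in B6J-Gtpbp2-/-, 0.02 ± 0.11 (edgeR adjusted p = 0.988), as were the oligodendrocyte genes.

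A few members are named because their p values were smallest, which was known only after the values were seen. Adamts10-203, from a gene for an extracellular metalloprotease, was at 2.65, 4.73 and 4.27 TPM in B6J.Gtpbp1-/-, 2.29, 4.13 and 2.78 in B6J-Gtpbp2-/- and 9.04, 10.3 and 9.72 in B6J. All mutant values are below all B6J values, and the changes were -1.43 ± 0.23 (edgeR adjusted p = 0.0625) in B6J.Gtpbp1-/- and -1.77 ± 0.24 (edgeR adjusted p = 0.0665) in B6J-Gtpbp2-/-. Adamts10 RNA fell in both mutants, by 1.02 ± 0.09 (edgeR adjusted p = 9.96e-06) and 1.16 ± 0.09 (edgeR adjusted p = 2.46e-05). Agtpbp1-218 belongs to the gene for a tubulin deglutamylase that Purkinje cells need. It was at 29.0, 31.7 and 35.8 TPM in B6J.Gtpbp1-/-, 27.6, 32.2 and 28.5 in B6J-Gtpbp2-/- and 44.5, 45.6 and 42.4 in B6J, again without overlap between mutants and B6J, with -0.70 ± 0.10 (edgeR adjusted p = 0.0665) in B6J-Gtpbp2-/-. Of the 5 Purkinje cell genes 1 and 3 were lower in the mutants, with the sums given above, and their part in the values of Agtpbp1-218 was not tested.

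Between the mutants no member differed. Of 2541 tested, edgeR called 0, with 96 at unadjusted p < 0.05 and 10 called by DESeq2, against 0.317% of all transcripts by DESeq2, and 47 were not tested. Over all 70389 transcripts it called 0.00426%, 1 higher and 2 lower in B6J.Gtpbp1-/-, with 3.01% at unadjusted p < 0.05. Without B6J.Gtpbp1-/- 3 the count is 1. The smallest p values, again known only afterwards, belonged to Tardbp-230, Ctla2a-203 and Cnot1-212. Ctla2a-203, from a gene for a cysteine protease inhibitor, was at 0.601, 1.13 and 0.928 TPM in B6J.Gtpbp1-/-, 4.08, 8.69 and 7.74 in B6J-Gtpbp2-/- and 0, 1.34 and 0 in B6J, with every B6J-Gtpbp2-/- value above every other library (-3.00 ± 0.48, edgeR adjusted p = 0.681). Cnot1-212, from the gene for the scaffold of the CCR4-NOT deadenylase complex, was at 5.95, 1.40 and 2.34 TPM in B6J.Gtpbp1-/- and at 0 in the other 6 libraries (edgeR adjusted p = 0.807). Its mean of 1.08 TPM comes from B6J.Gtpbp1-/- alone, so it is a member only through the genotype where it is high. Ctla2a-203 likewise reaches a mean of 1 TPM only through B6J-Gtpbp2-/-, so its separation from the other libraries is a description.

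By the main test, shares within the gene changed for no member in any comparison. With all 9 libraries in a single model 1 member was called. Limma was fitted to the log2 ratio of each transcript to the rest of its gene, and it called 0 of 2548 members in each comparison, with 40 not tested. At unadjusted p < 0.05 there were 187 members in B6J.Gtpbp1-/-, 191 in B6J-Gtpbp2-/- and 125 between the mutants, against 7.64%, 6.84% and 4.52% of all 41570 transcripts. The adjusted calls over all transcripts were 0.00241%, 0% and 0.00241%. The median change of members was 0.09 in both mutants against B6J and 0.00 between mutants, where all transcripts had 0.03, 0.04 and -0.01. Without B6J 1 and 3 the medians of members are 0.02 in both mutants. Retained-intron transcripts, another minor kind, had medians of 0.06 and 0.11, and protein-coding transcripts 0.00 and 0.00.

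The smallest share p value was that of Slc11a2-204, from the gene for the iron transporter DMT1, named after the values were seen. Its share was 0 in all 3 B6J.Gtpbp1-/- libraries, 7.20, 12.2 and 7.60% in B6J-Gtpbp2-/- and 20.6, 14.2 and 22.1% in B6J. The groups do not overlap (limma adjusted p = 0.0999 against B6J), and against a floor of 3 counts per library its TPM is at least 5.30-fold lower in B6J.Gtpbp1-/- than in B6J. With no reads in B6J.Gtpbp1-/-, Slc11a2-204 is a member through the other genotypes alone. Its separation, fold and p value are therefore only a description. Slc11a2 RNA as a whole did not change (0.15 ± 0.09, edgeR adjusted p = 0.325). Mms19-203, of a gene for an iron-sulfur cluster assembly factor, had shares of 5.12, 3.09 and 3.38% in B6J.Gtpbp1-/-, 2.91, 5.72 and 10.2% in B6J-Gtpbp2-/- and 19.2, 18.5 and 14.7% in B6J (-2.05 ± 0.30, limma adjusted p = 0.280 in B6J.Gtpbp1-/-). Hnrnpk-230, a minor transcript of an hnRNP gene, was at 2.77, 4.34 and 3.84 TPM in B6J.Gtpbp1-/-, 0, 0 and 1.02 in B6J-Gtpbp2-/- and 0 in all 3 B6J libraries (limma adjusted p = 0.280), at least 13.9-fold above the B6J floor in B6J.Gtpbp1-/-. Its mean over the 9 libraries reaches 1 TPM only through B6J.Gtpbp1-/-, the genotype where it is high. In B6J-Gtpbp2-/- the smallest belonged to Vta1-202 (limma adjusted p = 0.418), at 1.87, 1.73 and 1.68 TPM against 0 in all B6J libraries. Its floor of 3 counts is 1.20 TPM, so the rise there is at least 1.46-fold only, and in B6J.Gtpbp1-/- its mean was 5.03 TPM. With no reads in B6J, it too is a member through the mutant libraries alone.

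Host genes were tested by the RNA counts summed over all their transcripts. In B6J.Gtpbp1-/- 141 of the 1998 host genes rose in RNA and 269 fell by the edgeR test, 20.5% of them, where 13.8% of all 24577 genes changed (1449 higher and 1949 lower). In B6J-Gtpbp2-/- 73 rose and 167 fell, 12.01%, against 8.63% of all 24859 genes (898 and 1248). Genes as a whole were called more often than transcripts as a whole, so these counts are not set against those of the members. Host genes hold a member at a mean of 1 TPM or more, a level not asked of all genes. Some have a member only through the mutants. The higher percentages of host genes called are therefore only a description. The split depends on scaling: with upper-quartile scaling the counts are 200 higher and 195 lower in B6J.Gtpbp1-/- and 97 and 120 in B6J-Gtpbp2-/-. Median changes of host genes were -0.04 and -0.05, and 0.03 over all genes in both comparisons. Leaving out B6J.Gtpbp1-/- 2 or B6J 1 takes the first total of 410 to 228 and 248. The second, 240, becomes 135 and 111 without B6J-Gtpbp2-/- 2 or 3 and 91 and 124 without B6J 1 or 2. Without B6J 1 and 3 together the totals are 168 and 32.

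Members of the host genes called mostly changed in the direction of the gene, as did its other transcripts. The genes were called on counts that include those of the members, so the directions are a description. The 141 host genes that rose in B6J.Gtpbp1-/- have 172 members tested, of which 144 were above B6J with a median of 0.62 and 3 were called, Phf10-203, Rpl10a-203 and Cyb5r1-202. Of 343 members in the 269 host genes that fell, 257 were below B6J, with a median of -0.42 and 2 called, Tbata-205 and Mobp-204. In B6J-Gtpbp2-/- 79 of 90 members went up with their gene (median 0.78) and 160 of 207 down (median -0.44). The median share change of these members was 0.00 and 0.10 in B6J.Gtpbp1-/- and -0.05 and 0.12 in B6J-Gtpbp2-/-. Of the other transcripts of these genes 568 of 707 went up and 1177 of 1601 down in B6J.Gtpbp1-/- (medians 0.49 and -0.36), and 282 of 335 and 729 of 1000 in B6J-Gtpbp2-/- (medians 0.60 and -0.34).

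Between the mutants 2 host genes differed in RNA, 0.0595% of all 25190 genes being called. Gtpbp2 was one of this pair. The other was Pisd, which encodes the mitochondrial phosphatidylserine decarboxylase. Pisd was at 50.4, 46.8 and 52.9 TPM in B6J.Gtpbp1-/-, 97.7, 77.9 and 75.7 in B6J-Gtpbp2-/- and 94.5, 64.4 and 89.9 in B6J. All B6J.Gtpbp1-/- values of Pisd lie below the other 6, with -0.77 ± 0.11 between the mutants (edgeR adjusted p = 0.0406) and -0.89 ± 0.14 against B6J (edgeR adjusted p = 0.00359). Its member Pisd-207 ranged from 0 to 9.06 TPM without separating the groups. The Pisd difference was lost when any B6J.Gtpbp1-/- library or B6J-Gtpbp2-/- 2 was left out, and that of Gtpbp2 when any library was left out. With DESeq2 8 host genes differed, against 0.183% of all genes.

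Footprints, read less deeply than RNA, were called on about the same share of host genes as of all genes. In B6J.Gtpbp1-/- 9 of 1937 host genes rose and 4 fell (0.671%), against 0.745% of all 13956 genes (80 and 24). In B6J-Gtpbp2-/- 19 of 1934 rose and 26 fell (2.33%), against 2.94% of all 13797 (176 and 230). Between the mutants edgeR called 0 of 1939 host genes and 0% of all 14142 genes, with 242 host genes and 10.8% of all at unadjusted p < 0.05, and DESeq2 called 17, against 0.707% of all. The first count of 13 became 5 without B6J.Gtpbp1-/- 1, 30 without B6J.Gtpbp1-/- 3, and 2, 5 and 33 without B6J 1, 2 or 3. The second, 45, became 8 and 14 without B6J-Gtpbp2-/- 1 or 2, and 26, 18 and 84 without B6J 1, 2 or 3. The count between the mutants became 10 without B6J-Gtpbp2-/- 3. Footprints are counted for each gene, so those on a member cannot be told from those on the other transcripts of its gene.

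Among the host genes called, footprints rose most on Mthfd2 and Nupr1 in both mutants. Mthfd2, a mitochondrial enzyme of folate metabolism, had 397, 379 and 350 footprints in B6J.Gtpbp1-/-, 365, 152 and 449 in B6J-Gtpbp2-/- and 59, 39 and 63 in B6J, with no overlap. The changes were 2.32 ± 0.24 (edgeR adjusted p = 0.000848) and 2.15 ± 0.23 (edgeR adjusted p = 0.000226). Nupr1, a stress-induced nuclear protein gene, rose by 2.34 ± 0.32 (edgeR adjusted p = 0.00429) and 1.65 ± 0.33 (edgeR adjusted p = 0.0122). Next to Cyb5r1, given above for B6J.Gtpbp1-/-, A830018L16Rik, a gene known by its clone name, rose by 1.77 ± 0.23 (edgeR adjusted p = 0.00336) and 1.59 ± 0.23 (edgeR adjusted p = 0.00210). Yars, a tyrosyl-tRNA synthetase gene, rose less, by 1.03 ± 0.18 (edgeR adjusted p = 0.0197) and 1.16 ± 0.16 (edgeR adjusted p = 0.00160). Tbata fell in both mutants. The metabotropic glutamate receptor gene Grm4 was called lower in B6J-Gtpbp2-/-, -1.58 ± 0.31 (edgeR adjusted p = 0.0382), with -1.20 ± 0.31 (edgeR adjusted p = 0.116) in B6J.Gtpbp1-/-. Footprints on 6 of the 7 granule neuron genes were called lower in B6J-Gtpbp2-/-, Gabra6 by 1.30 ± 0.20 (edgeR adjusted p = 0.00378) and Cbln1 by 1.28 ± 0.20 (edgeR adjusted p = 0.00395), and their part in the fall of Grm4 was not tested. The complement gene C4b rose, 1.69 ± 0.32 (edgeR adjusted p = 0.0305) and 1.45 ± 0.32 (edgeR adjusted p = 0.0271). Microglia genes were higher in both mutants. So was Gfap, with 2 other genes of astrocytes and Bergmann glia lower in RNA. The part of any of these in the rise of C4b was not tested. The lipase inhibitor gene Angptl4 and the collagen gene Col4a1 were called higher in B6J-Gtpbp2-/-, 1.36 ± 0.31 (edgeR adjusted p = 0.0276) and 1.23 ± 0.22 (edgeR adjusted p = 0.00934). In B6J.Gtpbp1-/- they were at 1.25 ± 0.32 (edgeR adjusted p = 0.0995) and 0.94 ± 0.21 (edgeR adjusted p = 0.0607), with no difference called between the mutants by edgeR. Endothelium genes were higher as given above, and their part in these was not tested.

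Few factors of the decay pathway were called. Of 29 genes for decay factors 3 changed in RNA in B6J.Gtpbp1-/- by edgeR and 1 in B6J-Gtpbp2-/-, against 13.8% and 8.63% of all genes, with medians of 0.04 and -0.01. At unadjusted p < 0.05 there were 7 and 6, against 26.3% and 22.5% of all genes, and DESeq2 called 3 and 2, against 17.4% and 13.7%. Etf1, the release factor that ends translation at stop codons, was at 82.3, 89.0 and 91.4 TPM in B6J.Gtpbp1-/-, 72.2, 88.7 and 91.8 in B6J-Gtpbp2-/- and 56.6, 57.4 and 58.6 in B6J, without overlap. It rose by 0.45 ± 0.07 (edgeR adjusted p = 0.000957) and 0.40 ± 0.09 (edgeR adjusted p = 0.0239). Pnrc2, which links decay factors to decapping, rose by 0.29 ± 0.09 (edgeR adjusted p = 0.0461) in B6J.Gtpbp1-/-, and Upf3a fell by 0.33 ± 0.10 (edgeR adjusted p = 0.0483). The central helicase Upf1 was level, 0.02 ± 0.08 (edgeR adjusted p = 0.912) and -0.05 ± 0.09 (edgeR adjusted p = 0.825). Footprints changed on 0 of the 29 in either mutant by edgeR, with 3 and 5 at unadjusted p < 0.05 and 0 and 0 called by DESeq2, where over all genes it was 12.6% and 17.1% and by DESeq2 2.91% and 4.75%. Of these genes only Smg6 and Smg5 host members. Smg6-202, of the endonuclease gene of the pathway, was at 2.39, 1.23 and 2.33 TPM in B6J.Gtpbp1-/-, 4.53, 2.75 and 1.75 in B6J-Gtpbp2-/- and 5.19, 3.13 and 1.83 in B6J. Smg5-202 was at 3.44, 2.75 and 5.09 TPM in B6J.Gtpbp1-/-, 4.06, 2.56 and 3.00 in B6J-Gtpbp2-/- and 1.86, 2.28 and 3.07 in B6J. The groups overlap for both, and neither changed.

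Groups of host genes are described next by counts and medians, each beside the values over all features tested, which are 0.05 and 0.06 for transcript abundance, 0.03 and 0.04 for share and 0.03 and 0.03 for gene RNA. By edgeR 0.715% and 0.144% of all transcripts were called. Splicing and RNA-binding genes host 97 members in 63 genes. By edgeR only Ddx5-208 was called, lower in B6J.Gtpbp1-/-. There were 16 and 12 at unadjusted p < 0.05 (11.0% and 9.46% of all transcripts), and DESeq2 called 10 and 4 (7.94% and 3.97% of all transcripts). The medians of these members were 0.03 and 0.01 for abundance and 0.12 and 0.07 for share. Hnrnpa1-203, a member of the hnRNP A1 gene with a spliced 3' untranslated region, was at 51.6, 55.1 and 48.8 TPM in B6J.Gtpbp1-/-, 39.2, 35.6 and 50.2 in B6J-Gtpbp2-/- and 30.99, 30.3 and 28.3 in B6J. Its share of Hnrnpa1 was 26.6, 26.9 and 26.3 percent in B6J.Gtpbp1-/-, 19.9, 17.6 and 22.0 in B6J-Gtpbp2-/- and 13.1, 13.4 and 12.8 in B6J, with no overlap between B6J and either mutant. The member did not pass (0.65 ± 0.11, edgeR adjusted p = 0.0690 in B6J.Gtpbp1-/-), while Hnrnpa1 RNA fell by 0.46 ± 0.07 (edgeR adjusted p = 0.000830). Tardbp-230 belongs to the gene for the RNA-binding protein TDP-43. It was at 0 in all 3 B6J.Gtpbp1-/- libraries, 1.80, 1.34 and 1.85 TPM in B6J-Gtpbp2-/- and 5.57, 1.38 and 5.75 in B6J. The member did not pass against B6J (edgeR adjusted p = 0.0711), while Tardbp RNA was level. With no reads in B6J.Gtpbp1-/-, Tardbp-230 is a member through the other genotypes alone, so its values are only a description.

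Members in ribosomal protein genes had higher medians than transcripts as a whole. There are 18 in 15 genes, with abundance medians of 0.26 and 0.51 and share medians of 0.35 and 0.36. By edgeR Rpl10a-203 was the only call, in B6J.Gtpbp1-/-. At unadjusted p < 0.05 there were 4 and 4 (11.0% and 9.46% of all transcripts), and DESeq2 called 2 and 2 (7.94% and 3.97% of all transcripts). Over the 15 with a B6J mean of at least 1 TPM the abundance medians are 0.14 and 0.33. Rpl22l1-204, of a paralog of Rpl22, was at 19.9, 30.7 and 27.1 TPM in B6J.Gtpbp1-/-, 19.1, 18.1 and 16.4 in B6J-Gtpbp2-/- and 3.87, 4.05 and 1.13 in B6J. Its share went from 2.50, 2.24 and 0.709% in B6J to 10.9, 15.1 and 17.7% and 11.2, 11.5 and 9.41% without overlap, though it did not pass (2.87 ± 0.53, edgeR adjusted p = 0.0902 and 2.41 ± 0.52, edgeR adjusted p = 0.177). Rps19-205 was at 52.1, 71.5 and 55.1 TPM in B6J.Gtpbp1-/-, 50.1, 61.7 and 85.2 in B6J-Gtpbp2-/- and 38.7, 30.4 and 34.9 in B6J, above B6J in all mutant libraries and not called (0.58 ± 0.20, edgeR adjusted p = 0.338 and 0.76 ± 0.23, edgeR adjusted p = 0.320). Rpl22l1 and Rps19 RNA did not change in either mutant. Mitochondrial ribosomal protein genes host 21 members in 17 genes with medians of -0.11 and 0.05. Among them Mrps34-203 was at 0.822, 1.27 and 1.11 TPM in B6J.Gtpbp1-/-, 0.976, 2.37 and 1.66 in B6J-Gtpbp2-/- and 3.57, 2.36 and 1.55 in B6J, with B6J.Gtpbp1-/- below B6J. Mrpl32-201 was at 19.3, 24.2 and 26.9 TPM in B6J.Gtpbp1-/-, 35.9, 31.7 and 25.5 in B6J-Gtpbp2-/- and 26.3, 30.3 and 47.0 in B6J, with overlapping groups, and neither was called. Mrpl42-205, a minor transcript of its gene (mean 4.54 TPM), did not change, while footprints on Mrpl42 fell by 0.88 ± 0.20 in B6J-Gtpbp2-/- (edgeR adjusted p = 0.0316). In B6J.Gtpbp1-/- they were at 0.06 ± 0.20 (edgeR adjusted p = 0.939). Between the mutants edgeR called no difference (0.93 ± 0.20, edgeR adjusted p = 0.228), while DESeq2 called footprints of 1 of the 17 genes.

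Translation factor genes host 21 members in 11 genes, with medians of 0.09 and 0.01. By edgeR 0 were called in either mutant, with 2 and 2 at unadjusted p < 0.05 (11.0% and 9.46% of all transcripts) and 1 and 0 by DESeq2 (7.94% and 3.97% of all transcripts). Eif2a-207, of an initiation factor gene, was at 30.5, 34.5 and 24.6 TPM in B6J.Gtpbp1-/-, 17.2, 21.03 and 26.2 in B6J-Gtpbp2-/- and 12.1, 20.3 and 11.7 in B6J. Eif2d-206, of another, was at 1.29, 0.956 and 0.276 TPM in B6J.Gtpbp1-/-, 1.16, 0.982 and 1.27 in B6J-Gtpbp2-/- and 1.52, 2.00 and 2.81 in B6J. For Eif3k-205, of a subunit of eIF3, the values were 9.15, 4.94 and 7.04 TPM in B6J.Gtpbp1-/-, 8.79, 9.68 and 5.38 in B6J-Gtpbp2-/- and 2.62, 2.81 and 4.60 in B6J. For Eif2a-207 and Eif3k-205 all B6J.Gtpbp1-/- values lie above B6J, and for Eif2d-206 below. None of these changed.

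Host genes of the ATF4 and stress response rose in both mutants. All 7 rose in RNA in each mutant, with medians of 1.32 and 1.22, and 4 and 6 rose in footprints, where 13.8% and 8.63% of all genes were called in RNA and 0.745% and 2.94% in footprints. These 7 are in part chosen by the mutants, since some have a member only through them. Of all genes of the list, with or without a member, 41 of 42 tested rose in RNA in each mutant, and 26 and 35 of 43 in footprints. The 9 members summed to 68.3, 67.8 and 74.8 TPM in B6J.Gtpbp1-/-, 48.8, 55.8 and 71.7 in B6J-Gtpbp2-/- and 13.2, 8.51 and 17.6 in B6J. Neither mutant overlaps with B6J. The median changes of the members were 2.13 and 1.99, with share medians of 0.03 in both. Only 4 of the 9 have a B6J mean of at least 1 TPM, and the others are members through the mutants. Over those 4 the median is 0.90 and 1.24. By edgeR 0 of the 9 passed, with 4 and 4 at unadjusted p < 0.05 (11.0% and 9.46% of all transcripts) and 4 and 3 called by DESeq2 (7.94% and 3.97% of all transcripts). The members are Vldlr-201, Tars-207, Nupr1-204, Nupr1-205, Eprs-202, Yars-203, Mthfd2-206, Herpud1-202 and Herpud1-204.

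Vldlr-201, of the very-low-density lipoprotein receptor gene, was at 5.83, 2.88 and 5.46 TPM in B6J.Gtpbp1-/-, 8.70, 4.15 and 6.14 in B6J-Gtpbp2-/- and 1.31, 0.609 and 0.468 in B6J, all mutant values above all B6J values (2.47 ± 0.50, edgeR adjusted p = 0.109 and 2.89 ± 0.49, edgeR adjusted p = 0.111). Vldlr RNA rose by 0.56 ± 0.09 (edgeR adjusted p = 0.00124) and 0.50 ± 0.09 (edgeR adjusted p = 0.00871). Tars-207, of the threonyl-tRNA synthetase gene, was at 1.16, 2.26 and 1.72 TPM in B6J.Gtpbp1-/-, 2.69, 2.15 and 2.79 in B6J-Gtpbp2-/- and 0.311, 0.581 and 0.184 in B6J, again without overlap and not past the threshold (2.13 ± 0.52, edgeR adjusted p = 0.171 and 2.71 ± 0.47, edgeR adjusted p = 0.115). Tars RNA rose by 1.11 ± 0.09 (edgeR adjusted p = 2.96e-06) and 0.93 ± 0.11 (edgeR adjusted p = 0.000630), and Tars footprints by 1.10 ± 0.22 (edgeR adjusted p = 0.0119) in B6J-Gtpbp2-/-, with 1.14 ± 0.25 (edgeR adjusted p = 0.0617) in B6J.Gtpbp1-/-. Nupr1-205 was at 5.33, 6.87 and 8.08 TPM in B6J.Gtpbp1-/-, 0, 7.30 and 5.78 in B6J-Gtpbp2-/- and 0, 0.0994 and 0.486 in B6J, where B6J-Gtpbp2-/- 1 falls with B6J. The Nupr1 gene rose by 2.41 ± 0.14 (edgeR adjusted p = 2.63e-07) and 2.15 ± 0.21 (edgeR adjusted p = 0.000145) in RNA. Vldlr-201, Tars-207 and Nupr1-205 have B6J means below 1 TPM and are members through the mutants, where they are higher. The separations, folds and p values of these members are therefore only a description.

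In oxidative phosphorylation the calls in host gene RNA were all lower. Of 19 host genes 10 fell in B6J.Gtpbp1-/- and 7 in B6J-Gtpbp2-/-, and none was called higher, where 1949 of 24577 and 1248 of 24859 genes as a whole fell. With upper-quartile scaling 8 and 6 fell and none rose. Granule neuron genes and the mitochondrial part of TPM were also lower in both mutants as given above, and their part in these falls was not tested. The 20 members in oxidative phosphorylation genes had abundance medians of -0.15 and 0.03 and share medians of 0.34 and 0.34. By edgeR 0 of them were called, with 1 and 0 at unadjusted p < 0.05 (11.0% and 9.46% of all transcripts) and 1 and 0 by DESeq2 (7.94% and 3.97% of all transcripts). Ndufa3-204, of a complex I subunit gene, was at 25.1, 35.4 and 28.8 TPM in B6J.Gtpbp1-/-, 26.6, 53.3 and 13.6 in B6J-Gtpbp2-/- and 58.8, 45.5 and 72.6 in B6J, with B6J.Gtpbp1-/- below B6J. Ndufs4-202, also of a complex I gene, was at 79.8, 74.6 and 82.7 TPM in B6J.Gtpbp1-/-, 86.6, 91.7 and 80.3 in B6J-Gtpbp2-/- and 91.1, 116 and 78.0 in B6J, with overlap. For Ndufa10-207, of a further complex I gene, the values were 60.5, 51.4 and 51.5 TPM in B6J.Gtpbp1-/-, 44.2, 44.4 and 58.0 in B6J-Gtpbp2-/- and 44.3, 34.3 and 18.5 in B6J, with B6J.Gtpbp1-/- above B6J. Ndufa3 and Ndufs4 RNA fell in B6J.Gtpbp1-/- by 0.41 ± 0.09 (edgeR adjusted p = 0.00922) and 0.38 ± 0.08 (edgeR adjusted p = 0.00705).

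Synapse and ion channel genes host 40 members in 29 genes, with 0 called in either mutant by edgeR, 4 and 4 at unadjusted p < 0.05 (11.0% and 9.46% of all transcripts) and 3 and 1 by DESeq2 (7.94% and 3.97% of all transcripts). Their medians were -0.06 and -0.19. Gria2-203, of the AMPA receptor subunit GluA2, was at 18.5, 13.2 and 19.4 TPM in B6J.Gtpbp1-/-, 18.4, 15.8 and 12.4 in B6J-Gtpbp2-/- and 32.9, 26.2 and 17.9 in B6J. The syntaxin transcript Stx3-201 was at 6.60, 6.71 and 7.78 TPM in B6J.Gtpbp1-/-, 9.04, 7.26 and 4.76 in B6J-Gtpbp2-/- and 4.62, 4.04 and 4.22 in B6J. Neither Gria2-203 nor Stx3-201 changed, though the latter lies above B6J in all mutant libraries.

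Ubiquitin and proteasome genes host 26 members in 23 genes with medians of 0.17 and 0.35, or -0.14 and 0.06 over the 20 with a B6J mean of at least 1 TPM. By edgeR 0 were called, with 2 and 0 at unadjusted p < 0.05 (11.0% and 9.46% of all transcripts) and 0 and 0 by DESeq2 (7.94% and 3.97% of all transcripts). Psmf1-206, of a proteasome inhibitor gene, was at 0.916, 1.47 and 1.66 TPM in B6J.Gtpbp1-/-, 0.906, 0.788 and 1.97 in B6J-Gtpbp2-/- and 0.737, 0.596 and 0.672 in B6J. Usp4-207, of a deubiquitinase gene, was at 4.22, 5.26 and 5.10 TPM in B6J.Gtpbp1-/-, 4.03, 4.11 and 5.38 in B6J-Gtpbp2-/- and 3.06, 2.60 and 3.67 in B6J. For Psma3-206, of a proteasome core subunit gene, the values were 20.4, 13.9 and 16.1 TPM in B6J.Gtpbp1-/-, 9.07, 12.04 and 16.9 in B6J-Gtpbp2-/- and 5.36, 7.15 and 13.0 in B6J. All 6 mutant values of Psmf1-206 and Usp4-207 lie above B6J, and Psma3-206 overlaps with it in B6J-Gtpbp2-/-. Psmf1-206, with a B6J mean of 0.668 TPM, is a member through the mutants, where it is higher. Psmf1, Usp4 and Psma3 RNA did not change.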

How the data were processed

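RNA libraries of 9 cerebella and footprint libraries of 9 cerebella were used, 3 per genotype. Per the submitters' processing notes, RNA reads were assigned to transcripts with kallisto 0.42.4, and the deposited values are an estimated count and a TPM for each Gencode M20 transcript. For footprints the authors removed ribosomal reads with Bowtie2 2.2.3, aligned to mm10 with HISAT2 2.1.0 and deposited a count for each gene from featureCounts. The estimates of uncertainty that kallisto can make were not used here, so the tests below treat each estimated count as measured.

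Here estimated counts were rounded and tested with edgeR 4.0.16 (quasi-likelihood, robust, TMM), keeping features that reach 5 counts in 3 or more of 6 libraries, over all transcripts, or over all genes after summing. Footprint counts were tested the same way. Sleuth, which the authors used for RNA, was not used here. Shares were tested with limma 3.58.1 on the log2 ratio of a transcript's TPM to the rest of its gene, with 0.5 added to each, where transcript and rest both average at least 1 TPM. Calls are at a Benjamini-Hochberg adjusted p of at most 0.05, adjusted over all features tested. Library sizes run from 37794598 to 52114400 assigned reads for RNA and from 3630823 to 10442573 for footprints. Where all libraries of a genotype are at 0, a fold is given only against a floor of 3 counts per library. Stop codons, exon junctions and sequences come from Gencode M21 and GRCm38. Own sequence was measured as 31-base words found in no other transcript. Programs were R 4.3.3, Python 3.11.15, numpy 2.4.6, pandas 2.3.3 and DESeq2 1.42.0. Each test was tested on simulated data with 200 changed features.

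The members and lists were chosen with earlier results of these data known. Named are the 10 most abundant members, up to 8 called higher and 8 lower by abundance and 6 each way by share in each comparison, the 3 smallest p values of each list, the 3 transcripts on either side of 1 TPM, the 5 largest shares and the decay factors called. Results of some of these are not reported here. Members with the smallest p values where nothing was called, those nearest the threshold of adjusted p and host genes called by footprints were named after the values were seen. The lists are decay factors, splicing and RNA-binding, ribosomal protein, mitochondrial ribosomal protein, translation factor, ATF4 and stress response, oxidative phosphorylation, synapse and ion channel, and ubiquitin and proteasome genes, with marker lists for cell types. Alternatives tried were other tools, scalings, filters, pseudocounts (0.1 and 1), member thresholds, a replicate block, a covariate for Ddx3y (above 1000 counts) and leaving out each library. Leaving out B6J 1 and 3 together, the alternatives for host gene RNA, the sums over 1 kind of transcript, the medians over members at 1 TPM or more in B6J, the counts over all genes of a list and the rescaling to nuclear genes were added after the data were seen.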

Additional observations from a re-analysis of the deposited data

Results flagged for a closer look

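The mutants differed from each other in the RNA of 2 host genes by the edgeR test of the difference itself. Pisd was -0.77 in log2 between B6J.Gtpbp1-/- and B6J-Gtpbp2-/-, with the 3 B6J.Gtpbp1-/- libraries below the other 6. Gtpbp2 counts were 0.55 higher in B6J.Gtpbp1-/- than in the mutant that carries the Gtpbp2 mutation, while gene TPM, at 139, 160.0 and 162 against 127, 145 and 151, overlaps. The cause of either difference was not tested.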

How the results depend on the processing

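Of 194 values of 15 counts and sums under alternatives, 133 stayed within 1.5 times the value in the report or within its spread, 32 were smaller, 28 larger and 1 sum moved. For the 7 members called, 77 of 137 values kept the call, and for 60 footprint and RNA results of host genes 402 of 600 did. No direction of these named members and host genes reversed. The majority direction of the calls in B6J.Gtpbp1-/- did turn with upper-quartile scaling, for members and for host gene RNA, as given above.

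The 7 members called in B6J.Gtpbp1-/- became 145 with DESeq2, 19, 19 and 17 with limma at pseudocounts of 0.5, 0.1 and 1, 25 with all 9 libraries in a single model, 1 with the Ddx3y covariate, 0 to 3 with a library left out and 0 without B6J 1 and 3. By share the 0 became 1 with all 9 libraries. The 0 in B6J-Gtpbp2-/- became 71 with DESeq2, 2 without a filter, 3, 4 and 4 with limma, 15 with all 9 libraries and 0 to 1 with a library left out. Between the mutants DESeq2 gave 10 members and leaving out a library 0 to 1. Host genes by RNA, 410 in B6J.Gtpbp1-/-, were 228 to 439 with a library left out and 168 without B6J 1 and 3. The 240 in B6J-Gtpbp2-/- were 389 with DESeq2, 91 to 285 with a library left out and 32 without B6J 1 and 3, and the 2 between the mutants 8 with DESeq2, 5 without a filter and 0 to 2. By footprints, 13 became 39 with DESeq2, 23 without a filter and 2 to 33 with a library left out, 45 became 84 with DESeq2 and 8 to 84, and 0 between the mutants became 17 with DESeq2, 4 without a filter and 0 to 10. The summed TPM ratio of 1.06 in B6J.Gtpbp1-/- was 1.01 on nuclear genes, where the mitochondrial part of TPM, larger in B6J, is left out by construction. With B6J 1 and 3 left out the lone B6J library is assumed to vary like the mutant group.

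Same-numbered libraries correlate at -0.04 to 0.08 after genotype is removed, while 6 of 9 libraries correlate best with their own number. These values do not settle whether samples of the same number belong together. The main tests used no pairing. With a replicate block the 7 members became 0, footprint calls of 13 and 45 became 5 and 73, and host RNA calls of 410 and 2 became 258 and 1.

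Limits are the 3 libraries per genotype, the detection in B6J 1 and 3, and the sequence members share with other transcripts. That sharing leaves 1466 of them with less than 5% of their words to themselves. In 1236 members some words are shared with other genes.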
